A study of Zea mays with 46 samples.

Results

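The 216 genes described here form a stretch of maize gene identifiers, from Zm00001d029000 to Zm00001d029399, proposed as lying on chromosome 1 beyond the p1 locus. The members were chosen by identifier and by level: of 400 possible identifier numbers, the count table lists 303, and 216 of these reached a mean of 1 CPM (the count scaled to a common library total) in at least 1 of 9 RNA-seq groups. Over the whole table, 26138 of 39005 genes met the same level. The stretch was proposed because many of its genes differ between P1-rr and P1-ww silk and pericarp, so those differences describe the choice and are no independent finding. The deposited table gives no chromosome, position or gene name, and no reference used here pairs these identifiers with names. Whether the members lie beyond p1 was therefore not checked, p1 itself was not analysed here, and members are given by identifier with no function.

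P1 is a MYB transcription factor of maize that activates flavonoid genes. It gives red phlobaphene pigments in pericarp and cob, and maysin and related flavones in silk, where they deter insects. The allele P1-rr colours both pericarp and cob red, and with P1-ww both stay colourless. When an allele is moved between maize lines by crossing, DNA on either side of it usually comes along, and maize lines differ widely in sequence, in gene content and in expression. Gene identifiers of this annotation were numbered along each chromosome, so neighbouring numbers mostly stand for neighbouring genes. A transcription factor supplied from a plasmid, in contrast, acts in cells whose own chromosomes are the same with and without it.

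RNA was sequenced in 9 groups of 3 libraries, 27 in all. Unfertilized silks, at 0 days after pollination, represented 5 genotypes: inbred B73, inbred A632, their F1 hybrid B73 x A632, a P1-rr stock and a P1-ww stock, and the labels give the inbred A619 for both stocks. Pericarp, the outer layer of the kernel, came from P1-rr and P1-ww at 14 days after pollination, and the tissue field of these samples reads kernels. Each silk or pericarp replicate pooled 2 plants. Protoplasts, cells freed of their walls, came from the second leaf of F1 B73 x A632 seedlings grown in the dark for 12 days, and were transformed with an empty vector or with 35S:P1, in which a viral promoter, 35S, drives P1. This promoter is strong and active in nearly all plant cells. How the P1-rr and P1-ww stocks were made is not given in the sources used here, so an effect of the P1 allele and an effect of other DNA that differs between the stocks cannot be told apart. With no gene names, the labelled tissues could not be checked against marker genes, and in bulk RNA fewer cells of a type and less RNA per cell cannot be told apart.

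Library totals ran from 18910941 to 54466743 counts. The members together took 0.636% to 1.03% of the counts of a library. Their summed level was 8089 to 8866 CPM in the 3 P1-rr pericarp libraries and 7391 to 7762 CPM in the 3 P1-ww libraries, with no overlap. In silk the sums overlapped, with 6997 to 7334 CPM in P1-rr and 6858 to 7099 CPM in P1-ww. Of the 216 members, 131 averaged 1 CPM or more in all 9 groups and 12 did so in 1 group only. The highest group mean was in silk for 98 members, in pericarp for 62 and in protoplasts for 56. These are 45.4%, 28.7% and 25.9% of the members, against 46.8%, 24.8% and 28.4% of all genes at the same level, shares close to each other.

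In silk, 64 of the 201 members that could be tested differed between P1-rr and P1-ww, 38 higher and 26 lower in P1-rr (5.87% and 6.57% of all genes tested). A gene was called when its adjusted p was under 0.05 in edgeR's quasi-likelihood test, with Benjamini-Hochberg adjustment over all genes tested. By the same rule 12.4% of all genes were called, beside 31.8% of the members tested. The filter on low counts can let a gene through only because 1 group is high, so the members tested are not the whole stretch. The median absolute log2 fold change was 0.41 over the members tested and 0.25 over all genes tested, and the changes of members ran from -4.85 to 10.37. With a further requirement of a 2-fold change, 36 members were called, beside 4.88% of all genes.

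The 2 members that rose most in P1-rr silk were read in every group outside P1-ww. Zm00001d029242 stood at 5.53, 4.85 and 6.41 CPM in the P1-rr silk libraries and had no count in the 3 P1-ww silk libraries. The other silk groups lay between, with means of 1.90 ± 0.321 CPM in B73, 2.61 ± 0.219 in A632 and 2.84 ± 0.162 in the F1 hybrid (SD, n = 3). Its 441 counts in P1-rr against 0 in P1-ww make it at least 125-fold higher, taking 3 counts over the group as the floor (edgeR adjusted p = 6.79e-08). In pericarp it had 14 counts in P1-rr and 0 in P1-ww, which is at least 4.60-fold higher, and it was too low to be tested there.

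Zm00001d029205 was the single member read in 1 stock and not the other in both tissues, with at least 1 CPM in one and at most 0.1 CPM in the other. Of all 39005 genes, 15 met that rule, or 0.0385%. The rule needs a mean of 1 CPM, so only the 26138 genes at that level could meet it, and the share among those is larger. In silk it stood at 4.85, 5.46 and 5.64 CPM in P1-rr, and none of the 3 P1-ww libraries had a count, so that it was at least 119-fold higher with 417 counts against 0 (edgeR adjusted p = 1.19e-08). In pericarp it stood at 8.73, 11.3 and 13.1 CPM in P1-rr and at 0, 0.0969 and 0.0508 CPM in P1-ww. Those are 756 counts against 3, a ratio of 227 with a 95% exact counting interval of 77.5 to 1105 (edgeR adjusted p = 0.000289). B73, A632 and F1 silk held 5.91 ± 0.447, 7.33 ± 0.743 and 4.29 ± 0.313 CPM (SD, n = 3), so the P1-ww libraries stood apart from all other groups.

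The 2 members that fell most in P1-rr silk had unequal support. Zm00001d029290 stood at 0.673, 0.493 and 1.08 CPM in P1-rr silk and at 21.3, 20.0 and 21.2 CPM in P1-ww silk. The log2 fold change was -4.85 ± 0.61 (SE; edgeR adjusted p = 0.000243). SEs of log2 changes were derived from the F value of the test and are approximate. B73, A632 and F1 silk libraries ranged between 11.7 and 47.3 CPM, so here P1-rr was the low group. Zm00001d029185 stood at 0.0709, 0.0411 and 0.115 CPM in P1-rr and at 1.17, 0.603 and 1.61 CPM in P1-ww, with a log2 fold change of -3.88 ± 1.03 (SE; edgeR adjusted p = 0.0258). That call was lost without any 1 of P1-rr libraries 1, 2 and 3 (edgeR adjusted p = 0.101, 0.120 and 0.0596) or of P1-ww libraries 1 and 3 (0.0590 and 0.0868).

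In pericarp, 57 of the 180 members tested differed between the stocks, 29 higher and 28 lower in P1-rr (5.7% and 7.25% of all genes tested). They are 31.7% of the members tested, beside 13% of all genes called by the same rule. The median absolute log2 fold change was 0.52 over the members tested and 0.36 over all genes tested. The count depended on single libraries, and the share of all genes called moved in the same direction. The count was 31 without P1-rr library 2 (3.95% of all genes called), 33 without P1-ww library 1 (4.96%), 36 without P1-ww library 2 (5.28%) and 31 without P1-ww library 3 (3.71%). Without P1-rr library 3 it was 40 (6.81%), and without P1-rr library 1 it rose to 67 (17.8%).

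The members that rose most in P1-rr pericarp were Zm00001d029205, given above, and Zm00001d029360. Zm00001d029360 stood at 84.4, 95.6 and 94.5 CPM in P1-rr pericarp and at 0.974, 1.07 and 0.660 CPM in P1-ww pericarp. In silk it stood at 33.8, 41.0 and 35.6 CPM in P1-rr and at 0.404, 0.278 and 0.342 CPM in P1-ww. The log2 fold change was 6.58 ± 0.19 in pericarp and 6.66 ± 0.29 in silk (SE; edgeR adjusted p = 1.26e-05 and 5.65e-08). The gene was all but unread elsewhere: in the 15 libraries of B73, A632 and F1 silk and of protoplasts its highest level was 0.0334 CPM, which is 1 count. It was therefore high in P1-rr, low in P1-ww and close to absent in the other 5 groups. Its mean reached 1 CPM in the P1-rr groups only. It is thus a member only through the stock in which it is high, and its difference is a description of the choice.

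Neither of the 2 members that fell most in P1-rr pericarp was called lower in P1-rr silk. Zm00001d029062 had no count in P1-rr pericarp libraries 1 and 2 and 0.0428 CPM in library 3, and stood at 8.52, 1.02 and 7.06 CPM in P1-ww. That is 1 count against 335, and P1-ww was higher by a ratio of 371 with a 95% exact counting interval of 66.2 to 14707 (edgeR adjusted p = 0.00815). In silk it was low in both stocks, at 0.115 ± 0.0671 and 0.192 ± 0.0516 CPM (SD, n = 3), while B73 silk held 15.4 ± 1.37 CPM and A632 silk 0.0610 ± 0.0304 CPM. Zm00001d029040 stood at 0.212, 0.238 and 0.428 CPM in P1-rr pericarp and at 1.12, 3.83 and 1.78 CPM in P1-ww pericarp. Its log2 fold change was -2.97 ± 0.56 (SE; edgeR adjusted p = 0.0168), and the call was lost without P1-rr library 2 (edgeR adjusted p = 0.0686).

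**Figure D1:**
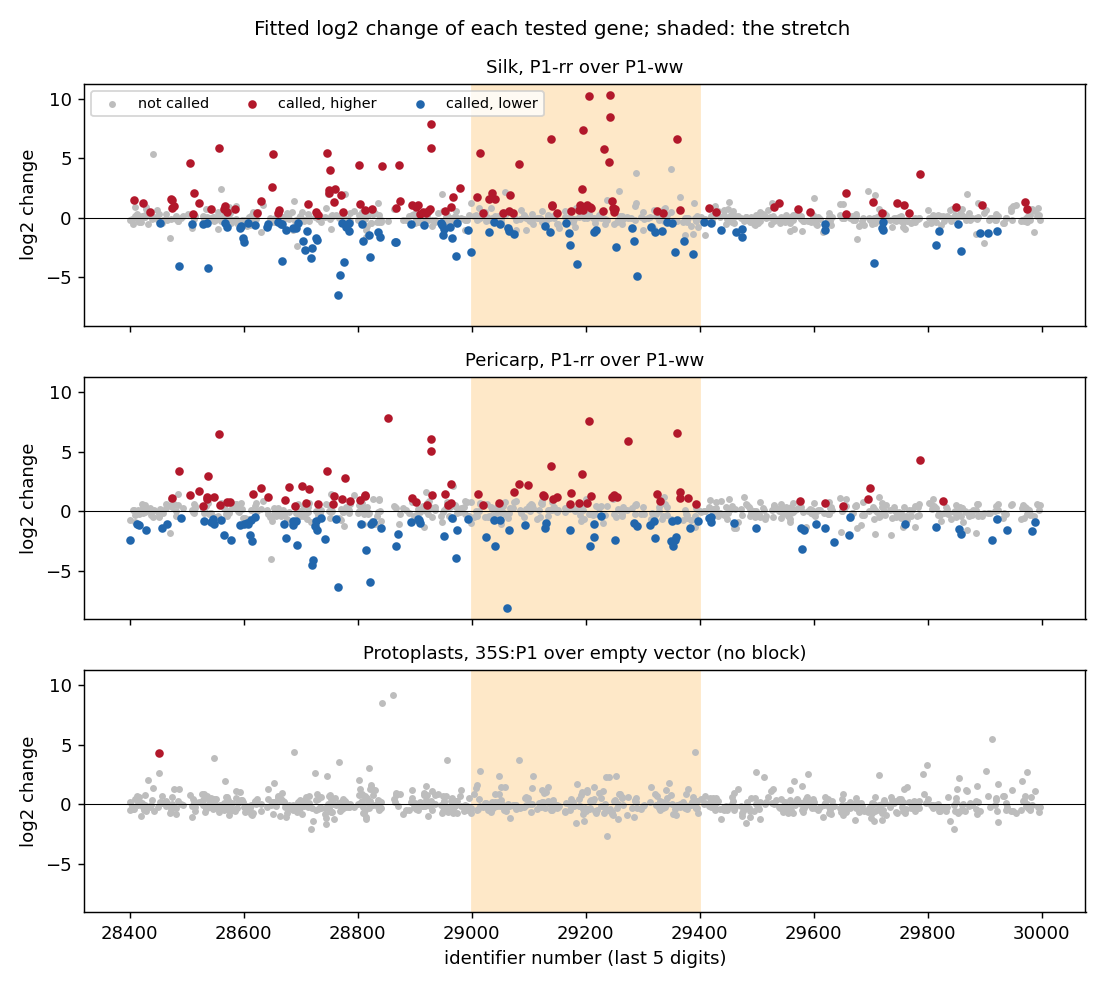
Fitted log2 fold change of each gene tested (vertical axis) against the number in its identifier (horizontal axis), in silk, pericarp and protoplasts, with called genes in red (higher) and blue (lower) and the stretch shaded. Called genes of both directions crowd the stretch and the identifiers before it in silk and pericarp, and thin out from 29400 on, while no member was called in protoplasts without the replicate block.

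Of the 173 members tested in both tissues, 26 were called in the same direction in both, 15 higher and 11 lower in P1-rr (1.04% and 1.03% of all genes tested). They are 15% of those tested, beside 2.08% of all genes. Of the 26, 13 changed 2-fold or more in both tissues (0.959% of all genes tested in both). Another 5 of the 26 changed less than 2-fold in both, a count not made over all genes. A further 26 were called in silk and not in pericarp, and 24 in pericarp and not in silk, beside 10.2% of all genes in each case. Another 28 members were tested in silk only, 7 in pericarp only and 8 in neither. The count of 26 fell to 16 without P1-rr pericarp library 2 (1.03% of all genes), to 16 without P1-ww pericarp library 1 (1.2%), to 17 without library 2 (1.19%) and to 16 without library 3 (1.02%).

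The members that fell most in both tissues were Zm00001d029356 and Zm00001d029172, and both had their highest levels in protoplasts. Zm00001d029356 stood at 0.283, 0.329 and 0.230 CPM in P1-rr silk and at 2.66, 2.74 and 0.683 CPM in P1-ww silk. In pericarp it stood at 2.27, 5.40 and 6.89 CPM in P1-rr and at 30.3, 19.2 and 23.1 CPM in P1-ww. The log2 fold change was -2.90 ± 0.82 in silk and -2.40 ± 0.37 in pericarp (SE; edgeR adjusted p = 0.0333 and 0.00922), and the stocks did not overlap in either tissue. The protoplast libraries held 128 to 516 CPM. The silk call was lost without any 1 of P1-rr libraries 1, 2 and 3 (edgeR adjusted p = 0.108, 0.109 and 0.0919) or of P1-ww libraries 1 and 2 (0.0915 and 0.111).

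Zm00001d029172 stood at 1.42, 1.27 and 1.57 CPM in P1-rr silk and at 7.19, 5.66 and 6.93 CPM in P1-ww silk. In pericarp it stood at 1.43, 1.35 and 1.93 CPM in P1-rr and at 5.75, 4.99 and 2.84 CPM in P1-ww. The log2 fold change was -2.27 ± 0.43 in silk and -1.60 ± 0.34 in pericarp (SE; edgeR adjusted p = 0.00398 and 0.0243). It was at most 0.407 CPM in B73, A632 and F1 silk, and 54.3 to 132 CPM in protoplasts. The pericarp call was lost without P1-rr library 2 or 3 (edgeR adjusted p = 0.0844 and 0.0510) and without P1-ww library 1 or 2 (0.0834 and 0.0699).

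**Figure D2:**
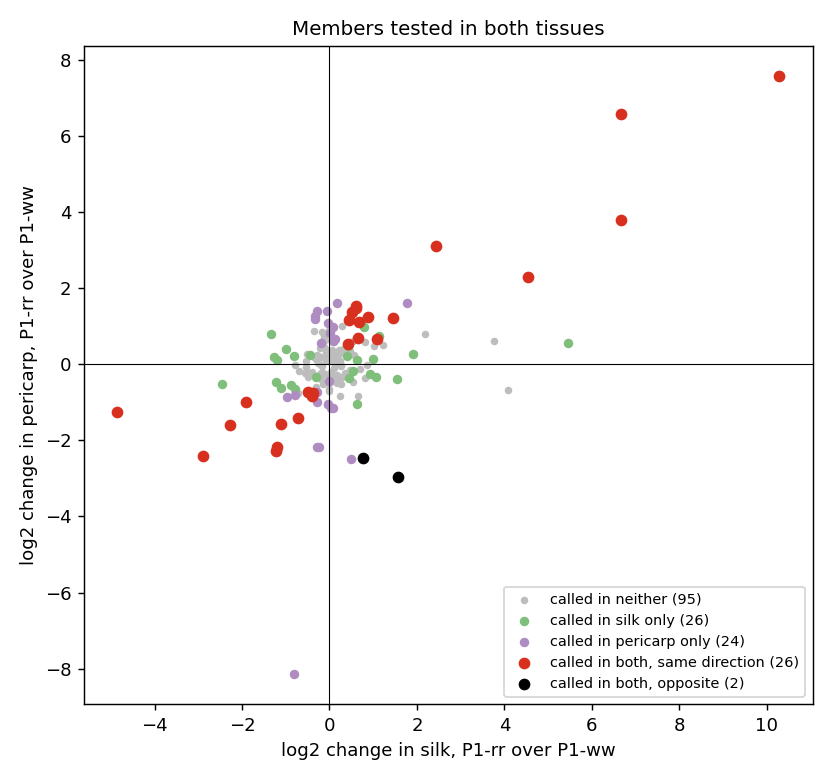
Log2 fold change of P1-rr over P1-ww in pericarp (vertical axis) against that in silk (horizontal axis) for the 173 members tested in both tissues, coloured by where they were called. The 26 members called alike spread along the diagonal in both directions, and 2 members called in both tissues lie at silk values above 0 and pericarp values below 0.

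The size of the P1-rr against P1-ww difference was itself compared between the tissues, in 1 fit of 12 libraries. Of 195 members tested, 46 were called, with 23 shifted towards higher P1-rr values in pericarp and 23 towards higher P1-rr values in silk (6.14% and 5.77% of all genes). They are 23.6% of those tested, beside 11.9% of all genes, and this too rests on the libraries that chose the stretch. Of the 46 members, 18 had been called in silk and not in pericarp, 14 in pericarp and not in silk, 9 in both tissues and 5 in neither. A member not tested in a tissue counts here as not called there. Of the 26 members called alike in both tissues, 7 differed in size between them. Neither of these splits was counted over all genes, so both describe the members only. The count of 46 fell to 27 without P1-rr silk library 1 (6.25% of all genes) and to 10 when all 27 libraries were fitted together (0.844% of all genes).

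The member that leant most towards silk was Zm00001d029195. It stood at 345, 296 and 358 CPM in P1-rr silk and at 1.90, 1.90 and 1.76 CPM in P1-ww silk, while pericarp held 0.397 to 0.476 CPM in P1-rr and 0.339 to 0.584 CPM in P1-ww. P1-rr silk thus stood far above all 8 other groups, the next highest single library being an empty vector protoplast library at 23.9 CPM. The difference, pericarp minus silk, was -7.60 ± 0.35 on the log2 scale (SE; edgeR adjusted p = 2.03e-07). Zm00001d029062, low in silk of both stocks and in P1-rr pericarp, followed at -7.39 ± 1.73 (SE; edgeR adjusted p = 0.0177), and lost the call without P1-rr silk library 1 or 2 (edgeR adjusted p = 0.0618 and 0.0648).

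Towards pericarp, members were ranked among those called whose group ranges did not overlap in at least 1 tissue. The 2 that led there were those that fell most in P1-rr silk. Without that limit, the largest difference of any member tested was 5.14 on the log2 scale. Zm00001d029290 stood at 3.70, 4.73 and 6.20 CPM in P1-rr pericarp and at 10.3, 10.9 and 11.8 CPM in P1-ww pericarp. It was thus lower in P1-rr in both tissues, by -1.24 ± 0.22 in pericarp against -4.85 ± 0.61 in silk on the log2 scale (SE). The difference between tissues was 3.60 ± 0.33 (SE; edgeR adjusted p = 0.000107). These values come from separate fits, so their SEs cannot be combined. For Zm00001d029185 the difference between tissues was 4.14 ± 1.24 (SE; edgeR adjusted p = 0.0468). That call was lost without 9 of the 12 libraries taken singly: P1-rr pericarp 2 (edgeR adjusted p = 0.236), P1-ww pericarp 2 and 3 (0.0688 and 0.0809), P1-rr silk 1, 2 and 3 (0.110, 0.111 and 0.0717) and P1-ww silk 1, 2 and 3 (0.0860, 0.0594 and 0.104).

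Among members called in both tissues, 2 had opposite directions, 1.16% of those tested beside 0.54% of all genes. One was Zm00001d029040, which stood at 9.92, 13.5 and 9.95 CPM in P1-rr silk and at 3.47, 3.43 and 3.76 CPM in P1-ww silk. Its log2 fold change was 1.58 ± 0.44 in silk (SE; edgeR adjusted p = 0.0324), and the difference between tissues was -4.55 ± 0.56 (SE; edgeR adjusted p = 0.000672). The other was Zm00001d029251, named after its values were seen. It held 7.55 ± 1.33 against 4.27 ± 1.12 CPM in silk and 1.89 ± 0.329 against 9.85 ± 1.37 CPM in pericarp (P1-rr against P1-ww, SD, n = 3), a difference of -3.21 ± 0.34 (SE; edgeR adjusted p = 0.000301).

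**Figure D3:**
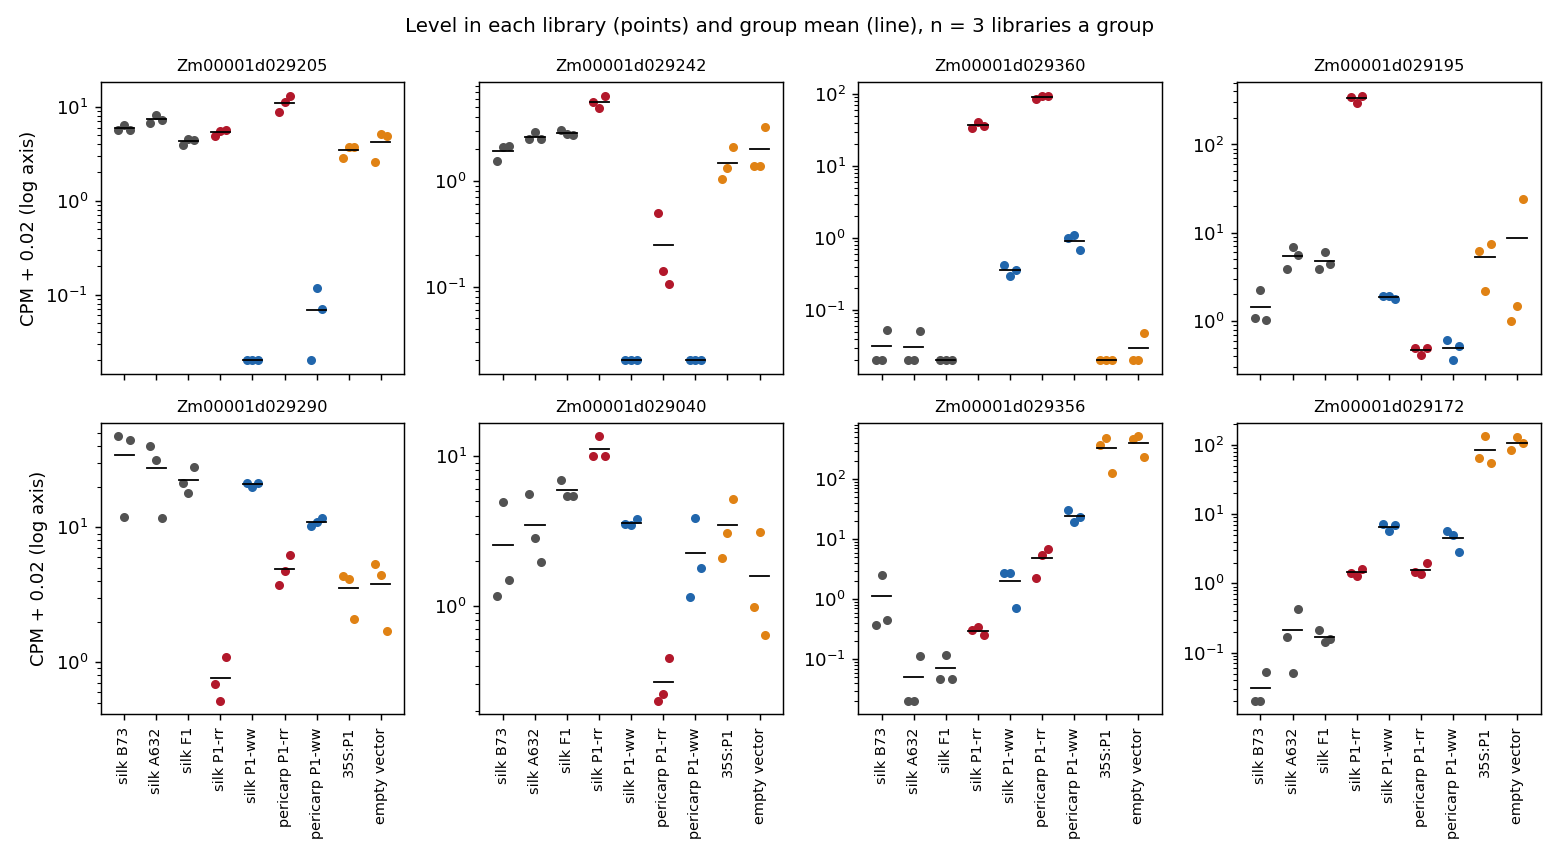
Level in CPM plus 0.02 (log axis) of 8 members in each of 27 libraries, with a point for each library and a line at the mean of the 3 libraries of a group. P1-ww silk is without counts for Zm00001d029205 and Zm00001d029242, Zm00001d029360 is read in the P1 stocks alone save for single counts, and Zm00001d029195 stands at 296 to 358 CPM in P1-rr silk and at most 23.9 CPM elsewhere.

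Along the identifiers, raised shares of called genes began before the stretch and were mostly lower after it, which is a description of the choice with no test. In blocks of 100 identifiers from 29000 on, the share of tested genes called in silk was 32.7%, 31.4%, 38.0% and 25.0%. In the next 4 blocks it was 16.3%, 7.69%, 9.52% and 22.2%, and farther on it reached 23.3% at 30100. In pericarp the 4 blocks of the stretch had 26.5%, 26.1%, 34.1% and 40.9%, and the next 4 had 11.4%, 9.09%, 21.4% and 4.76%. Each block holds about 50 tested genes, so the 95% exact binomial intervals are wide, for example 13.6% to 39.6% at 29300 and 7.32% to 29.7% at 29400 in silk.

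The 400 identifiers before the stretch, from 28600, had shares like those of the stretch, and the 400 after it had shares near those of all genes. In silk 87 of 221 genes before it (39.4%) and 26 of 188 genes after it (13.8%) were called. In pericarp the counts were 69 of 208 (33.2%) and 20 of 172 (11.6%). Called alike in both tissues were 28 of 204 genes before (13.7%) and 3 of 165 after (1.82%). The raised shares began near 28500, where 30.2% in silk and 33.9% in pericarp were called, against 18.0% and 19.1% in the block before. The start of the stretch is thus a boundary of the rule and not one in the data, whereas shares were lower from 29400 on. Of the 2 last members and the 2 first genes outside, Zm00001d029397 alone was called. Zm00001d029397 had a log2 fold change of -0.80 in pericarp (edgeR adjusted p = 0.0478) and -0.79 in silk (edgeR adjusted p = 0.119), Zm00001d029396 had 0.14 and 0.16, and Zm00001d029400 and Zm00001d029402 lay between -0.07 and 0.07 in both tissues. At the level limit, 2 listed genes were just left out with highest group means of 0.859 and 0.869 CPM, and 2 just entered with 1.10 and 1.11 CPM.

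**Figure D4:**
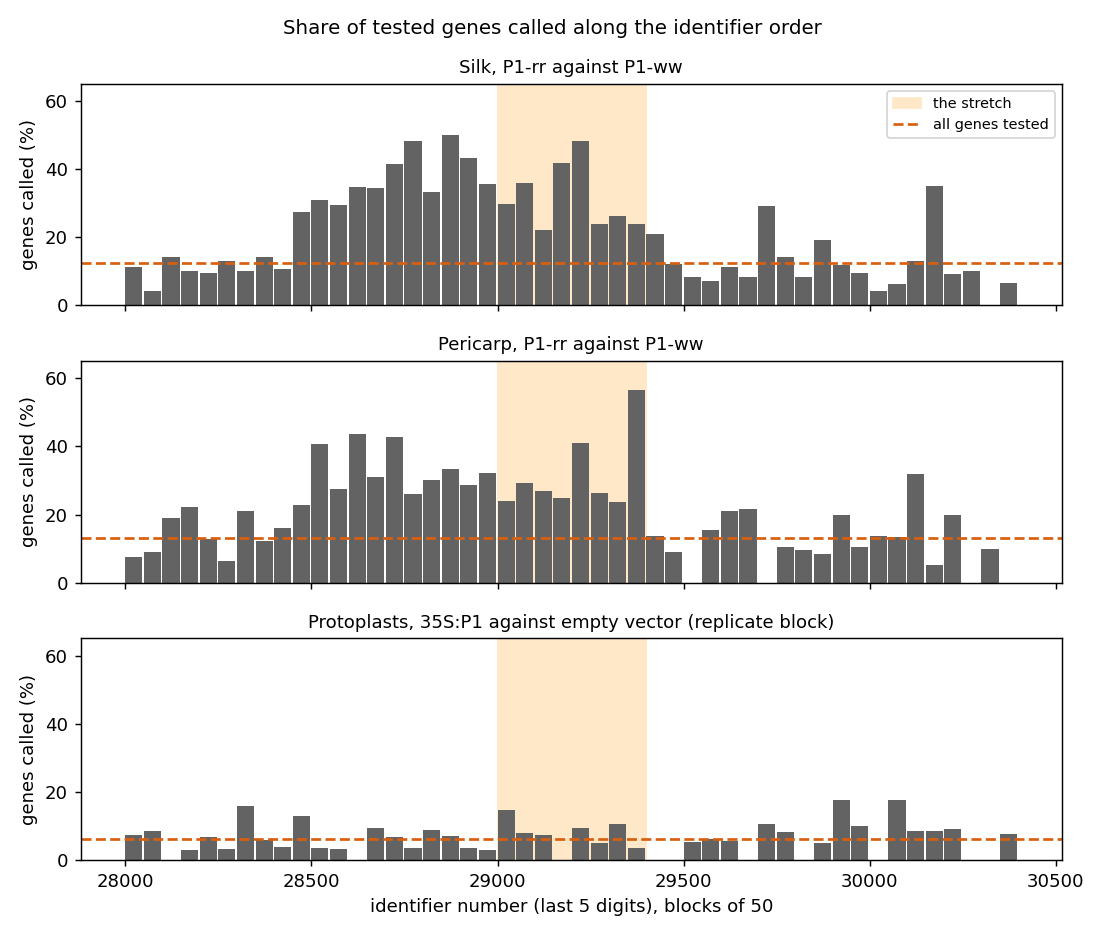
Percent of tested genes called (vertical axis) in blocks of 50 identifiers (horizontal axis), for silk, pericarp and protoplasts with the replicate block, with the stretch shaded and the share over all genes as a dashed line. In silk and pericarp all 8 blocks of the stretch stand above the dashed line at 12.4% and 13%, as do the blocks before it back to about 28450, and single blocks after it rise above the line too, up to 35.0% in silk at 30150 and 31.8% in pericarp at 30100, while in protoplasts the blocks scatter around 6.28%.

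The size of differences followed the same course. On mean log2(CPM + 0.5), the median absolute difference between P1-rr and P1-ww silk was 0.29 over the 216 members, 0.37 over the 235 genes before, 0.19 over the 211 after and 0.19 over all genes at the same level. In pericarp these medians were 0.40, 0.46, 0.26 and 0.28. The medians of the fitted signed changes of members were 0.00 in silk and 0.09 in pericarp.

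Distances of the P1-rr and P1-ww stocks from the other inbreds were about the same over the stretch as over all genes. P1-rr silk differed from B73 silk by a median absolute 0.47 over the members and 0.50 over all genes, and P1-ww silk by 0.52 and 0.51. From A632 silk, P1-rr differed by 0.51 over the members and 0.50 over all genes, and P1-ww by 0.47 and 0.48.

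B73 and A632, whose difference was not the reason for proposing the stretch, differed at 108 of 201 members in silk, 53 higher and 55 lower in B73 (24.8% and 28.2% of all genes tested). This is 53.7% of the members tested, beside 53% of all genes, a share near the background. The level rule did use these libraries: 6 members reached 1 CPM in B73 or A632 silk and in no other group, and all 6 were called, while 102 of the other 195 tested were. Of the 64 members called between P1-rr and P1-ww silk, 35 were also called between B73 and A632, or 54.7%, against 60.5% of all genes called in that P1 comparison. Of these 35, 18 were higher in both P1-rr and B73 or lower in both, or 51.4%, against 55.5% of all such genes.

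The largest differences between B73 and A632 were members with no count in 1 inbred. Zm00001d029137 stood at 4.11, 4.64 and 3.44 CPM in B73 silk with no count in A632 silk, at least 134-fold higher (edgeR adjusted p = 1.72e-06). Zm00001d029275 stood at 0.968, 0.933 and 4.37 CPM in B73 against none in A632 silk, a level at least 68.8-fold higher. The F1 hybrid held 2.93 ± 0.333 CPM of Zm00001d029137 and 0.0446 ± 0.0175 CPM of Zm00001d029275 (SD, n = 3). In the other direction, Zm00001d029114 stood at 1.79, 3.53 and 2.91 CPM in A632 with no count in B73, at least 91.9-fold lower in B73 (edgeR adjusted p = 1.73e-05). Zm00001d029219 stood at 1.58, 1.75 and 1.66 CPM in A632 with no count in B73, at least 55.7-fold lower in B73. Zm00001d029275 and Zm00001d029219 are members only through the inbred in which they are high, so their differences are a description of the choice.

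Some members went unread in whole stocks. No count was found in the 12 P1-rr and P1-ww libraries for 6 members, 2.78% against 1.42% of all genes at the same level, and Zm00001d029137, Zm00001d029275 and Zm00001d029219 were among them. Counts in P1-rr and none in the 6 P1-ww libraries were found for 2 members, and the reverse for 1, which are 0.926% and 0.463% against 0.754% and 0.700% of all genes. Of these, Zm00001d029242 had 455 counts in P1-rr, while the other 2 rested on 1 count each. Reads were aligned to the B73 genome, on which a gene that is missing or diverged in another line reads low, so a missing gene and a silent one cannot be told apart here.

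In protoplasts, where cells of 1 hybrid carried 35S:P1 or an empty vector, no member passed the threshold in the main fit, which left the replicate number out. By edgeR 0 of 200 members tested were called, beside 0.139% of all genes, each of them higher with 35S:P1. At an unadjusted p under 0.05 there were 16 members, or 8% against 6.43% of all genes, and DESeq2 called 4 members, beside 2.63% of all genes. The median absolute log2 fold change was 0.36 over the members tested and 0.38 over all genes tested. Members that led in silk or pericarp varied here, none past the threshold of the main fit. Zm00001d029185, lower in P1-rr silk, stood at 0.952, 1.03 and 1.89 CPM with 35S:P1 and at 0.255, 0.181 and 0.620 CPM with the empty vector, without overlap (edgeR adjusted p = 0.664, and 0.0888 with replicates as a block). Its mean reached 1 CPM with 35S:P1 and in P1-ww silk only, so this difference too is a description of the choice. Zm00001d029040 held 3.44 ± 1.58 CPM with 35S:P1 and 1.57 ± 1.35 CPM with the empty vector (SD, n = 3). Zm00001d029205 held 3.44 ± 0.530 CPM with 35S:P1 and 4.19 ± 1.43 CPM with the empty vector, and Zm00001d029195 held 5.25 ± 2.74 and 8.80 ± 13.1 CPM (SD, n = 3).

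Protoplast libraries with the same replicate number deviated together, and when the fit held the number as a replicate block, 15 of 200 members were called, all higher with 35S:P1. They are 7.5% of those tested, beside 5.19% of all genes called higher, 1.08% called lower and 6.28% called in either direction, a share near the background. Of the 15, 3 were also higher and 3 lower in P1-rr silk, together 40% against 17.9% of all genes called with the block. In pericarp 3 were higher and 2 lower, together 33.3% against 16.2%. These shares are set beside 31.8% and 31.7% of all members tested that were called in silk and pericarp. Of the 26 members called alike in silk and pericarp, 3 were among the 15, or 11.5% against 16.3% of all genes called alike.

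The 2 members with the largest blocked changes, named after their values were seen, differed widely in level. Zm00001d029391 stood at 590, 299 and 305 CPM with 35S:P1 and at 9.40, 31.9 and 6.57 CPM with the empty vector, with no overlap. Its log2 fold change was 4.78 ± 0.51 with the block (SE; edgeR adjusted p = 0.000842) and 4.42 without it (edgeR adjusted p = 0.107). Outside protoplasts it was close to absent, with at most 0.219 CPM in any silk library and 1.02 CPM in any pericarp library, and it was not called in pericarp (edgeR adjusted p = 0.222) and too low to be tested in silk. Zm00001d029083 stood at 1.25, 0.268 and 0.349 CPM with 35S:P1 and at 0.0510, 0.0603 and 0 CPM with the empty vector, a log2 fold change of 3.72 ± 0.94 with the block (SE; edgeR adjusted p = 0.0491) and 3.75 without it (edgeR adjusted p = 0.386).

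Zm00001d029083 was also among the members higher in P1-rr in both tissues. It stood at 24.2, 13.6 and 30.1 CPM in P1-rr silk and at 0.888, 0.695 and 1.22 CPM in P1-ww silk, a log2 fold change of 4.54 ± 0.49 (SE; edgeR adjusted p = 5.85e-05). In pericarp it stood at 7.77, 3.22 and 11.9 CPM in P1-rr and at 1.36, 1.31 and 1.78 CPM in P1-ww, a log2 fold change of 2.29 ± 0.47 (SE; edgeR adjusted p = 0.0227). A632 silk held 123 ± 28.3 CPM and B73 silk 38.5 ± 11.7 CPM (SD, n = 3), so A632 stood above P1-rr silk, and B73 overlapped it. The F1 silk libraries stood at 7.29, 4.65 and 13.1 CPM, below each P1-rr silk library.

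**Figure D5:**
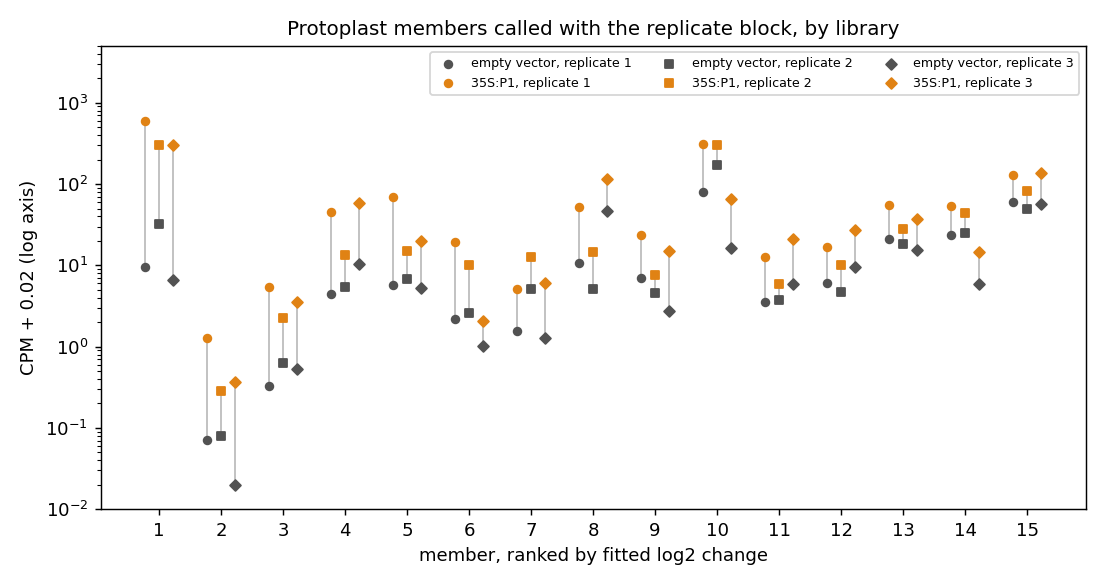
Level in CPM plus 0.02 (log axis) of the 15 members called in protoplasts with the replicate block, ranked by fitted log2 fold change, with grey lines joining the 35S:P1 and empty vector libraries of the same number. The 35S:P1 library lies above its partner in all 3 pairs of each member, and the first member stands at 299 to 590 CPM against 6.57 to 31.9 CPM.

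The 2 members with the highest mean CPM over the groups, which is not corrected for gene length, behaved differently from each other. Zm00001d029359 held 1235 to 2938 CPM in the 6 protoplast libraries and at most 36.4 CPM elsewhere. In pericarp it stood at 2.38, 8.34 and 11.7 CPM in P1-rr and at 33.2, 25.5 and 36.4 CPM in P1-ww, a log2 fold change of -2.17 ± 0.46 (SE; edgeR adjusted p = 0.0250), and silk values of the stocks overlapped. Zm00001d029170 was read throughout, at 91.7 to 927 CPM. In silk it stood at 381, 311 and 409 CPM in P1-rr and at 749, 927 and 845 CPM in P1-ww, a log2 fold change of -1.26 ± 0.27 (SE; edgeR adjusted p = 0.00821). In pericarp it held 577 ± 89.3 against 480 ± 21.4 CPM (SD, n = 3; edgeR adjusted p = 0.393), and the difference between tissues was 1.45 ± 0.20 (SE; edgeR adjusted p = 0.00121).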

How the data were processed

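Per the labels' protocols, TruSeq v2 libraries of total RNA were sequenced from 1 end over 50 nt. Per the submitters' processing notes, the tools were bcl2fastq 2.20.0, FastQC, Trimmomatic, Bowtie2 2.3.4.1 and HISAT2 2.0.4, and the build B73 RefGen_v4. Which program counted reads, on which annotation and strand, is not given in the sources used here, so gene copies and overlapping genes are uncertain. The authors deposited raw counts per gene for 39005 genes in 27 libraries, with no normalization. No reference used here pairs the identifiers with names or positions, so the 16 peak lists were not used and no sequence is shown.

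Members and lists were chosen with earlier results of these data known. Tests on the counts were made in R 4.3.3 with edgeR 4.0.16 (TMM, filterByExpr, quasi-likelihood, two-sided, Benjamini-Hochberg over all genes tested, adjusted p under 0.05). The 5 silk groups were fitted together, pericarp and protoplasts each alone, and the difference between tissues on 12 libraries. The labels call the replicates biological. Each SE of a log2 change is the absolute change divided by the square root of the F value of its test. It is an approximation from the test and not a separate estimate. Floors of 3 counts over a group and 95% intervals cover counting error only. Libraries of a group differed beyond sampling noise (chi-square per degree of freedom 7.4 to 666), so none was merged. Fits were tested on simulated data.

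Protoplast libraries with the same number deviated together (r across genes 0.63, 0.72 and 0.83, and at most 0.31 between other numbers), so the numbers were taken to pair them; the labels do not say so. Members named were the 2 with the largest called change in each direction and comparison whose group ranges did not overlap (for the difference between tissues, in at least 1 tissue), the 2 largest called alike in both tissues ranked by the smaller change, the member read in 1 stock only, and the 2 with the highest mean CPM. Alternatives were DESeq2 1.42.0, its size factors, no filter, other libraries in the fit, a replicate block, each library left out, a 2-fold limit, a level of 5 CPM, other pseudocounts and blocks of 50 identifiers.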

Additional observations from a re-analysis of the deposited data

Results flagged for a closer look

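For 6 of the members described, the P1-rr against P1-ww difference passed the threshold for a difference between pericarp and silk, by the edgeR test of the difference itself on 12 libraries. Values are pericarp minus silk on the log2 scale. The value was 3.60 for Zm00001d029290 (edgeR adjusted p = 0.000107), which was lower in P1-rr in both tissues and more so in silk. It was 4.14 for Zm00001d029185 (edgeR adjusted p = 0.0468), a member of at most 2 CPM in every library, whose call was lost in 11 of 17 alternative settings (edgeR adjusted p up to 0.252, with all 27 libraries in 1 fit). It was 1.45 for Zm00001d029170 (edgeR adjusted p = 0.00121), lower in P1-rr silk. It was -7.60 for Zm00001d029195 (edgeR adjusted p = 2.03e-07), read strongly in P1-rr silk. It was -7.39 for Zm00001d029062 (edgeR adjusted p = 0.0177, with the call lost in 2 of 17 settings), read in P1-ww pericarp and hardly in P1-rr pericarp. It was -4.55 for Zm00001d029040 (edgeR adjusted p = 0.000672), higher in P1-rr silk and lower in P1-rr pericarp. Groups held 3 libraries, too few to single out a library within a group.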

How the results depend on the processing

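No named member that was rerun reversed its direction. In silk, 64 members called became 36 at 2-fold or more (4.88% of all genes), with 43 to 56 over libraries left out (5.63% to 11.1%). The silk count rose to 73 with DESeq2 (17.1%) and to 78 with the 6 compared libraries alone (22.1%). In pericarp, 57 became 31 to 67 over libraries left out (3.71% to 17.8%) and 68 with DESeq2 (21.2%). For the difference between tissues, 46 became 10 with all 27 libraries in 1 fit (0.844% of all genes) and 27 to 58 over libraries left out (6.25% to 16.8%). With DESeq2 that count was 64 (17.4%). In protoplasts, 0 became 1 with no filter (0.342%), 4 with DESeq2 (2.63%) and 19 with all 27 libraries in 1 fit (8.24% of all genes). Between B73 and A632, 108 became 55 at 2-fold or more (26.6%). Called alike in both tissues, 26 became 11 with all 27 libraries in 1 fit (0.464%), 13 at 2-fold or more (0.959%) and 16 to 29 over libraries left out (1.02% to 2.49%). Median distances moved with the pseudocount: at 0.1 CPM they were 0.58 for P1-rr and 0.63 for P1-ww from B73, and 0.57 and 0.60 from A632, and at 1 CPM 0.42 and 0.42 from A632. The distance of P1-rr from A632 was 0.47 on TMM-adjusted CPM and 0.43 over members with 5 CPM or more, where P1-ww gave 0.49 and 0.44, so the order of the stocks in distance from A632 turned there and at 0.1 CPM. The cause was not tested. Of 255 settings over 21 results for named members, 226 kept the call and 29 lost it.

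With the replicate number as a block, 15 members were called in protoplasts, 61 in silk, 36 in pericarp, 41 for the difference and 18 alike in both tissues, beside 6.28%, 12%, 5.08%, 10.3% and 1.18% of all genes. Outside protoplasts the samples share only a number. Between the same numbers, r across genes was 0.055 to 0.069 for P1-rr against P1-ww silk and -0.25 to 0.13 in pericarp. For B73 against A632 silk it was -0.28 to 0.038. Between unlike numbers, r was -0.076 to 0.0039 for P1-rr against P1-ww silk, -0.26 to 0.42 in pericarp and -0.20 to 0.26 for B73 against A632 silk. The 0.42 was between P1-rr pericarp library 3 and P1-ww pericarp library 2, above every same-number value in pericarp. With the block, Zm00001d029185 for the difference (edgeR adjusted p = 0.0770) and Zm00001d029172 in pericarp (0.0712) lost the call. Of the members, 15 could not be tested in silk and 36 in pericarp for low counts.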
